A study of Drosophila melanogaster with 2 samples.

Results

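Most sites bound by CG32772 in Drosophila melanogaster embryos lay in AT-rich sequence, and the sites described here were the GC-rich minority. A summit, the base at which a peak of chromatin immunoprecipitation and sequencing (ChIP-seq) is highest, was called GC-rich when the window from 50 bp to its left to 50 bp to its right on the dm6 assembly held 45% G and C bases or more. On the chromosome arms, 897 of 4699 summits of the stricter joint peak list were GC-rich (19.1%, exact 95% interval 18.0 to 20.2%), and the remaining 3802 were the summits they were compared with. The libraries came from whole embryos, 0 to 24 h old, of a transgenic fly strain in which CG32772 is fused to eGFP, and an antibody against GFP was used for the precipitation. There were 2 biological replicates of this 1 group, so the comparisons are between summits and not between conditions. Embryos of all these ages were collected together, so a site used at 1 stage and a site used weakly at all stages cannot be told apart. Depth could not be given for either library, as the files used here hold peaks and not reads.

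CG32772 encodes a protein with zinc fingers of the Cys2His2 kind, a domain that reads DNA sequence. Base composition follows annotation in the fly genome: coding exons are rich in G and C, and introns and intergenic DNA are rich in A and T. Promoters of widely expressed fly genes often carry the DNA replication-related element (DRE), bound by DREF, or the site of the zinc finger protein M1BP. Insulator proteins such as BEAF-32 and CTCF bind near many of the same promoters and at the borders of chromatin domains, and long runs of A resist wrapping into nucleosomes.

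The windows of 10 GC-rich summits show what such sites look like. Each carries the name of the protein-coding gene whose start site is nearest. The summits of tara, mub and moody are among the strongest with a peak in both libraries' own lists. EloB, Gfat2, soti and CG12684 are examples with a match to the DRE, the M1BP site, the CTCF core and a run of A. Top1 is a strong summit above 60% GC, Ref1 has the highest GC content of all, and the CG34268 summit lies in a coding exon. All are the plus strand of dm6, and capitals mark matches on either strand to TATCGATA (DRE), to GGTCACAC (M1BP), to AGGTGGCG (CTCF core), to a run of 7 A, and to ACTGCGC and GCGCCAC, a pair of sequences of 7 bases described with the motifs.
tara (chr3R:16222437-16222537): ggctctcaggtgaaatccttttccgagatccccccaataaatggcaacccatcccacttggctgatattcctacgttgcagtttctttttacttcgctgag
mub (chr3L:21880452-21880552): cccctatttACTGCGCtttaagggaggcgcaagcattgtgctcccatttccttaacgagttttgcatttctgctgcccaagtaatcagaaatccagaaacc
moody (chrX:2050222-2050322): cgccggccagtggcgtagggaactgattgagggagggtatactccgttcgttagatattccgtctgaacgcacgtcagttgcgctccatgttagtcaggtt
EloB (chr3R:20579866-20579966): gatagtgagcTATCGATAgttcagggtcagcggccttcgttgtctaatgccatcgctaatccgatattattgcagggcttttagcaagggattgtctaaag
Gfat2 (chr3R:28339810-28339910): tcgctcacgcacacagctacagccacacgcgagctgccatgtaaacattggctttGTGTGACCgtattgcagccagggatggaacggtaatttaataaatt
soti (chr3R:14391375-14391475): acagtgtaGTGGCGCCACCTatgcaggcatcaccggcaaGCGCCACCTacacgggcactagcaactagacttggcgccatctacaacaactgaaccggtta
CG12684 (chrX:4590138-4590238): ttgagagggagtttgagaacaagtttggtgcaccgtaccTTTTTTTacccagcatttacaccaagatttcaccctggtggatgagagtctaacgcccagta
Top1 (chrX:15323400-15323500): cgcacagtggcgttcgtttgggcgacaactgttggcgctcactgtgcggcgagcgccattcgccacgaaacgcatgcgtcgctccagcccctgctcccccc
Ref1 (chr3R:7080043-7080143): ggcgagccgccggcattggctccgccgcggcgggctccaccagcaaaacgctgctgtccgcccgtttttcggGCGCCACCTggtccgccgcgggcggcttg
CG34268 (chr3L:506164-506264): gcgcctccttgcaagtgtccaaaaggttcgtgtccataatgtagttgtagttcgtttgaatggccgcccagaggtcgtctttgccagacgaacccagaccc
The windows of tara, moody, Top1 and CG34268 hold none of these matches. The soti window holds the CTCF core at 2 places, and the Ref1 window holds it in a window with 76 G and C bases.

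The tara summit had the highest signal of the GC-rich summits, 1566.8 in the joint list, where it ranked 17. Its own peaks had a signal of 678.6 in replicate 1 and 880.2 in replicate 2. It lay in intergenic DNA, 3164 bp upstream of the nearest start site of tara, which encodes a nuclear cofactor. Signal is a number the authors gave each peak, on a scale that no source used here explains, so it is compared only within a list. The mub summit, in an intron of this gene for an RNA-binding protein with KH domains, had a joint signal of 908.9, with 444.5 in replicate 1 and 464 in replicate 2. The moody summit (706.9 in the joint list, 343.5 in replicate 1 and 384.6 in replicate 2) lay 152 bp upstream of a start site of the gene for a receptor of the glial blood-brain barrier, inside the neighbouring gene CG4313. The Top1 summit, upstream of the gene for DNA topoisomerase I, had a joint signal of 431.3 and a signal of 216.7 in each library. These sites were thus called separately in both libraries. The Ref1 summit, in contrast, had 75.25% GC and a joint signal of 80.08, and no peak in either library's own list overlapped it. Ref1 encodes a factor of mRNA export.

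GC-rich windows were less common at summits than in the genome. Of 1356741 non-overlapping tiles of the window's length on the same arms, 39.8% passed the same threshold, so that the share at summits was 0.479 of the share in tiles. The median GC content was 51.5% at GC-rich summits and 31.7% at the remaining summits, values the choice itself separates, and 42.6% in the tiles. Just inside the threshold, 93 summits had 46 G and C bases in the window, with a median signal of 92.4, and just outside it 86 summits had 45 bases, with a median of 96.4. The strongest just inside was the CG13501 summit (801.9, on 2R) and the strongest just outside the CG16753 summit (1005.7, on 3L). GC-rich summits made up 17.9% of the summits of 2L, 21.2% of 2R, 19.6% of 3L, 19.3% of 3R and 17.5% of X. On Y, 3 of 4 summits were GC-rich, and chromosome 4 had 0 summits.

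GC-rich summits lay in coding exons more often, and in introns less often, than the remaining summits. A promoter was the DNA within 500 bp of an annotated transcription start site (TSS), each summit was given 1 of 7 classes, and classes were compared by Fisher's exact test, two-sided, with adjustment over the 7 classes by Benjamini and Hochberg. Of the GC-rich summits 48 (5.35%) lay in coding exons, against 3 (0.0789%) of the remaining summits (adjusted exact p = 8.6e-31). Nearly all summits in coding exons were therefore GC-rich (94.1%, interval 83.8 to 98.8%), in a class of which 83.9% of tiles are GC-rich. In introns lay 282 GC-rich summits (31.4%) and 1535 remaining ones (40.4%), a difference of -8.94 percentage points (adjusted exact p = 2.4e-06). Tiles of the arms run the same way: introns hold 29.6% of GC-rich and 45.5% of other tiles, and coding exons 27.0% and 3.43%. What part of either difference goes beyond base composition by class was not tested. The 5' UTR held 10 GC-rich and 15 remaining summits (1.11% and 0.395%, adjusted exact p = 0.0404), and the 3' UTR held 13 and 28 (1.45% and 0.736%, adjusted exact p = 0.0805). Non-coding exons held 5 GC-rich and 31 remaining summits (adjusted exact p = 0.615). These p-values take summits as the unit, and neighbouring summits can share DNA fragments.

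Promoters held 407 GC-rich summits (45.4%, interval 42.1 to 48.7%) and 1604 remaining ones (42.2%, 40.6 to 43.8%), against 42.8% of all summits. The difference of 3.19 percentage points did not pass the test (adjusted exact p = 0.118). It passed with a promoter of 200 bp, where the shares were 35.3% and 29.1% (adjusted exact p = 7.5e-04), and in the own list of replicate 2, where they were 53.8% and 44.3% (adjusted exact p = 1.9e-04), and it changed sign to -0.44 with windows of 100 bp to each side. Intergenic DNA held 132 GC-rich summits (14.7%) and 586 remaining ones (15.4%), with an adjusted exact p of 0.643; in the own list of replicate 2 the shares were 11.5% and 15.5%, which passed (adjusted exact p = 0.0342). Within each of the 3 largest classes, GC-rich windows were less common at summits than in tiles: 20.2% against 43.0% in promoters, 15.5% against 30.1% in introns and 18.4% against 34.4% in intergenic DNA. The low share of GC-rich windows at summits was thus seen in each of these classes by itself.

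**Figure D1:**
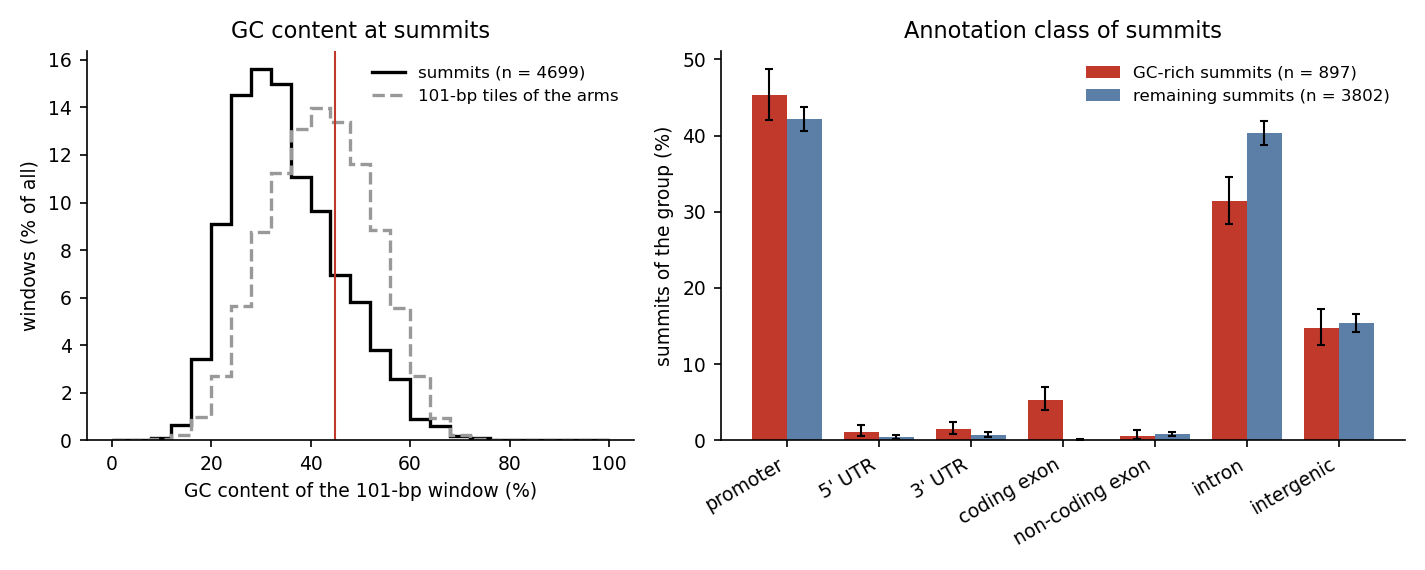
Left, GC content (%) of windows of 50 bp to each side at all summits (solid line) and in tiles of the arms (dashed line), as a percentage of windows in bins of 4 percentage points, with the 45% threshold as a vertical line. Right, share (%) of GC-rich summits (left bar of each pair, n = 897) and remaining summits (right bar, n = 3802) in each annotation class, with exact 95% intervals; coding exons held 5.35% of GC-rich summits and 0.0789% of the remaining ones.

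Of the 4 strongest GC-rich summits in coding exons, 3 lay in genes other than the one with the nearest start site. The strongest of the 48 had a joint signal of 587.7 (273.1 in replicate 1 and 326.3 in replicate 2) and 60.4% GC. It lay in otp, which encodes a homeodomain protein, 4669 bp from the nearest start site, that of Cib2. The next, with a joint signal of 311.2, lay at a place spanned by HisRS, the gene for histidyl-tRNA synthetase, and by Bx, the gene for a LIM-only protein. A summit with 69.3% GC (269.3, with 116.8 in replicate 1 and 149.1 in replicate 2) lay in the phosphodiesterase gene Pde1c, and the summit nearest to CG34268 (209.2) lay in klar, which acts in the transport of nuclei and lipid droplets. Summits of this class were weak as a group, with a median signal of 70.9 over the 48, and 5 of them (10.4%) had a peak in both own lists. In the own list of replicate 2 alone, coding exons held 1.72% of GC-rich summits and 0% of the remaining ones, and in the upper 50% of the joint list 2.11% and 0.0473%. The difference of 5.27 percentage points became 3.35 with a threshold of 40% GC and 7.97 with 50%.

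GC-rich summits were weaker than the remaining summits. Their median joint signal was 85.4 (quartiles 68.8 and 119), against 126 for the remaining summits. Of the GC-rich summits 99 (11.0%) reached the upper 25% of the list by signal, as did 1076 (28.3%) of the remaining ones, a difference of -17.3 percentage points (Fisher's exact test, adjusted over 3 readouts, p = 3.3e-30). The first 100 ranks held 3 GC-rich summits and the next 400 held 29, whereas GC-rich summits were 32.1% of the summits ranked after 3000. Within promoters the shares in the upper 25% were 12.5% and 37.0%, and outside promoters 9.80% and 21.9%. The difference was thus present both within and outside promoters.

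Fewer GC-rich summits had a peak in both libraries' own thresholded lists. An overlapping peak was present in both lists for 274 GC-rich summits (30.5%, interval 27.5 to 33.7%) and for 2118 remaining ones (55.7%, 54.1 to 57.3%), against 50.9% of all summits (difference -25.2 percentage points, adjusted exact p = 4.4e-42). Neither list held a peak at 386 GC-rich summits (43.0%) and at 742 remaining ones (19.5%). Replicate 1 alone supported 83 GC-rich and 388 remaining summits, and replicate 2 alone 154 and 554. Within promoters, the shares in both lists were 38.6% of GC-rich and 64.0% of remaining summits (adjusted exact p = 6.0e-20), and outside promoters 23.9% and 49.7% (adjusted exact p = 6.5e-26). Taking each library's own list in place of the joint one made the difference smaller. In the list of replicate 1, 66.1% of GC-rich and 81.2% of remaining summits had a peak in that of replicate 2 (difference -15.1), and in the list of replicate 2, 55.2% and 70.7% had a peak in that of replicate 1 (difference -15.5).

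Support in both lists moved with signal. Among summits in the weakest 25% of the list, 8.22% of GC-rich and 5.74% of remaining summits had a peak in both lists, and in the next 25% the shares were 17.9% and 19.5%. In the third such group they were 72.5% and 79.7%, and in the strongest 98.0% and 99.1%. At each of these signal levels the shares lay closer together than over the whole list. An overlap of 1 base counted, so a summit beside a stronger one can be counted through its neighbour's peak. In the weakest 25%, 29.1% of GC-rich and 22.6% of remaining summits lay within 1 kb of a stronger summit. Among the upper 50% of the list a difference in support of -6.42 percentage points remained (83.1% and 89.5%, adjusted exact p = 0.00663). Both readouts also changed along the GC scale: at 60% GC or more, 20.5% of 83 summits had a peak in both lists, at 45 to under 50% GC 35.9% of 384, and under 25% GC 66.8% of 781. The median signal at these 3 levels was 76.0, 91.8 and 153, and it was lowest at 55 to under 60% GC, at 73.2. What part of the lower support goes with lower signal was not tested.

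**Figure D2:**
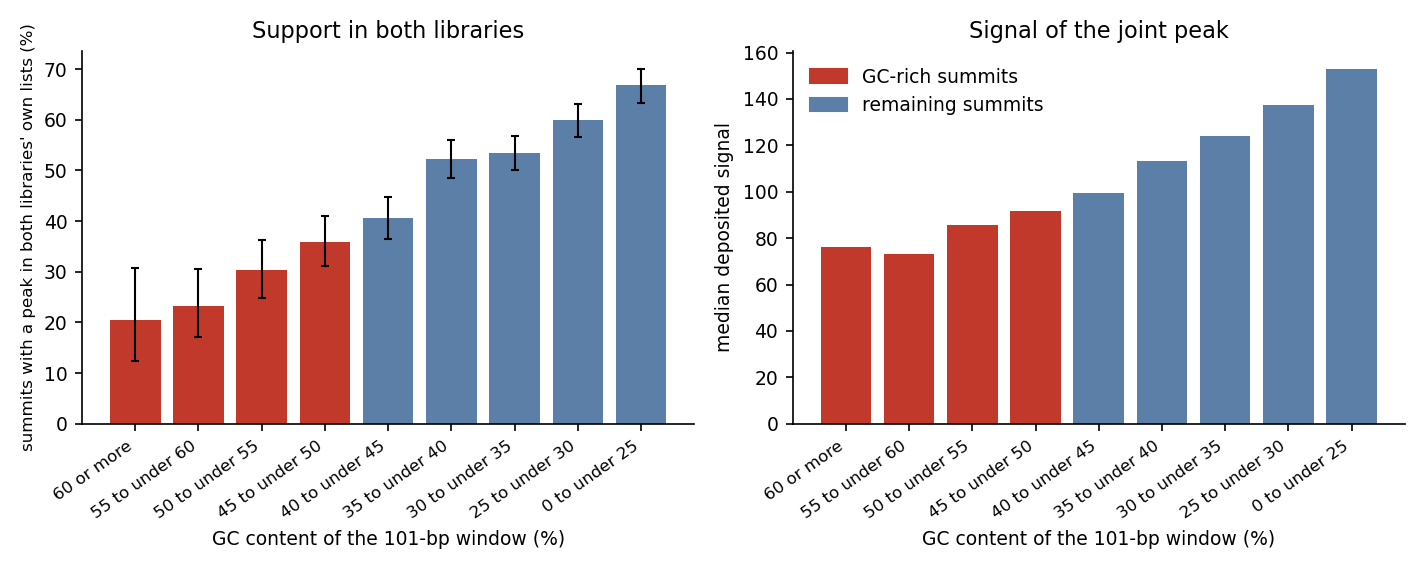
Left, share (%) of summits with an overlapping peak in both libraries' own lists, with exact 95% intervals, by GC content of the window (%). Right, median deposited signal of the joint peak by the same GC levels; levels at 45% GC or more are the GC-rich summits and stand at the left, and the share is lowest at 60% GC or more (20.5%), and the median signal at 55 to under 60% GC (73.2, beside 76.0 at 60% GC or more).

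Where a library had its own peak at a GC-rich summit, its own summit lay close by, so its window shares most of the bases that chose the joint summit. The shares of own summits that were GC-rich are therefore a description of how often the shift crossed the threshold, with no test. The library's own summit was GC-rich for 261 of 357 summits in replicate 1 (73.1%) and for 308 of 428 in replicate 2 (72.0%), against 3.11% of 2506 and 3.07% of 2672 remaining summits. Of the 274 GC-rich summits with a peak in both lists, 179 (65.3%, interval 59.4 to 70.9%) had a GC-rich summit in both libraries. The median gap between the joint summit and the library's own summit was 18 bp in replicate 1 and 15 bp in replicate 2. GC-rich summits made up 14.1% of the own list of replicate 1, 14.8% of that of replicate 2 and 19.7% of the less strict joint list.

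Further down the libraries' own ranked lists of all calls, ordered by signal, GC-rich summits became the majority. On the arms these lists held 113626 calls in replicate 1 and 77048 in replicate 2. The libraries' own thresholded lists held 3012 and 3537, so most ranked calls had not passed a threshold. Of the first 100 calls, 2% were GC-rich in replicate 1 and 3% in replicate 2. After rank 3000 and up to 5000, the shares were 41.3% in replicate 1 and 27% in replicate 2. After rank 10000 and up to 20000, they were 67% and 63.8%, above the 39.8% of genome tiles. Coding exons held 0% of the first 100 calls of either library, against 19.2% and 17.7% of the calls after rank 10000 and up to 20000.

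**Figure D3:**
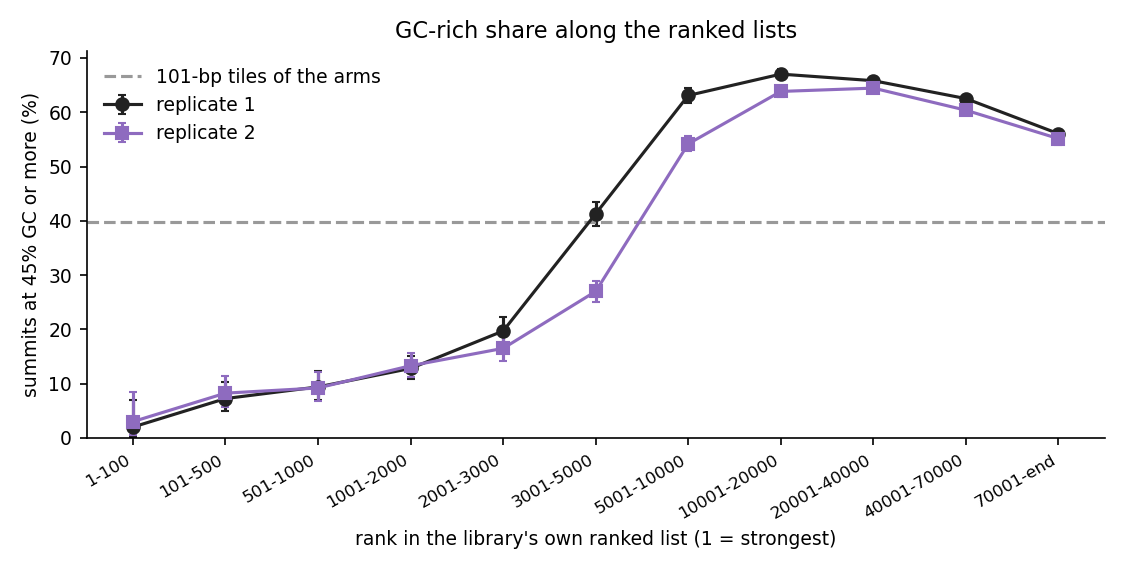
Share (%) of summits at 45% GC or more by rank in each library's own ranked list, where rank 1 is the strongest call, with exact 95% intervals; the dashed line is the share of tiles of the arms. The libraries start at 2% and 3% in the first 100 ranks and pass the line after rank 3000 and before rank 10000. The ranked lists also hold calls outside the thresholded lists, which had 3012 and 3537 calls on the arms.

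GC-rich summits often stood next to a stronger summit. A stronger summit of the same list lay within 1 kb of 171 GC-rich summits (19.1%) and of 367 remaining ones (9.65%), against 11.4% of all summits (difference 9.41 percentage points, Fisher's exact test, adjusted exact p = 6.7e-14). Many of these were very weak calls: 84 GC-rich and 72 remaining summits had a signal under 20. Without them, an alternative added after seeing the data, the shares were 10.7% and 7.91% (difference 2.79 percentage points, adjusted exact p = 0.0119), and within the upper 50% of the list they were 6.75% and 4.78% (adjusted exact p = 0.205). In the own list of replicate 1 they were 13.2% and 7.5% (adjusted exact p = 2.0e-04). In that of replicate 2 they were 20.9% and 8.99% (adjusted exact p = 3.1e-13). That difference, 11.9 percentage points, was the widest of the alternatives run. The Act5C summit, with 64.4% GC and a signal of 170.8 in an exon of a non-coding RNA, lay 783 bp from a stronger summit, and the elav summit (163.8) lay 839 bp from one. Act5C encodes a cytoplasmic actin and elav an RNA-binding protein of neurons. The summits within 1 kb of a stronger one were therefore not all very weak.

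AT-rich DNA lay close to many GC-rich summits. The mean GC content of 51-bp windows was 52.6% at GC-rich summits, where the choice fixes it, and fell to 40.9% at 300 bp on either side (standard error 0.42 percentage points at each). At the remaining summits it was 30.8% at the centre and 44.6% and 43.9% at 300 bp to the left and right on the plus strand (standard errors 0.18 and 0.19). In GC-rich tiles, chosen by the same threshold, the mean also fell, from 52.6% at the centre to 44.6% at 300 bp on either side. At that distance the GC-rich summits were thus below both the remaining summits and these tiles. At 1000 bp to the left and right they were above the remaining summits, with 43.3% and 42.94% against 42.45% and 42.29%. A 51-bp window at or under 30% GC lay within 150 bp of 525 GC-rich summits (58.5%, interval 55.2 to 61.8%), against 36.6% of GC-rich tiles. In promoters the shares were 67.6% of GC-rich summits and 38% of GC-rich promoter tiles, and outside promoters 51.02% and 36.4%. Outside both promoters and coding exons they were 53.9% and 43.0%, so the gap was widest in promoters. The share was 67.9% of the GC-rich summits in both own lists and 47.2% of those in neither list. For the remaining summits it was 95.4%, but the search takes in the centre, where the choice keeps their windows under 45% GC. These shares are a description with no test.

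Near start sites, GC-rich summits sat closer to the TSS than the remaining summits. Within 500 bp of a TSS of a protein-coding gene lay 382 GC-rich and 1509 remaining summits, with median positions of -27 bp and -114 bp relative to the direction of transcription. Of these, 138 GC-rich summits (36.1%) and 181 remaining ones (12%) lay less than 50 bp from the TSS (difference 24.1 percentage points, adjusted exact p = 3.1e-25). With windows of 100 bp to each side in the choice of summits, the shares were 27.5% and 14.6%. From 50 to 200 bp upstream lay 27.2% of the GC-rich and 50.4% of the remaining summits. Fewer GC-rich summits stood between start sites of divergent genes, with 66 (17.3%) against 546 (36.2%) of the remaining summits (adjusted exact p = 3.1e-13). Both comparisons were added after seeing the data and were made with Fisher's exact test, adjusted over the pair. The share of GC-rich tiles by position around start sites was not computed. What part of either difference goes beyond base composition by position was therefore not tested.

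**Figure D4:**
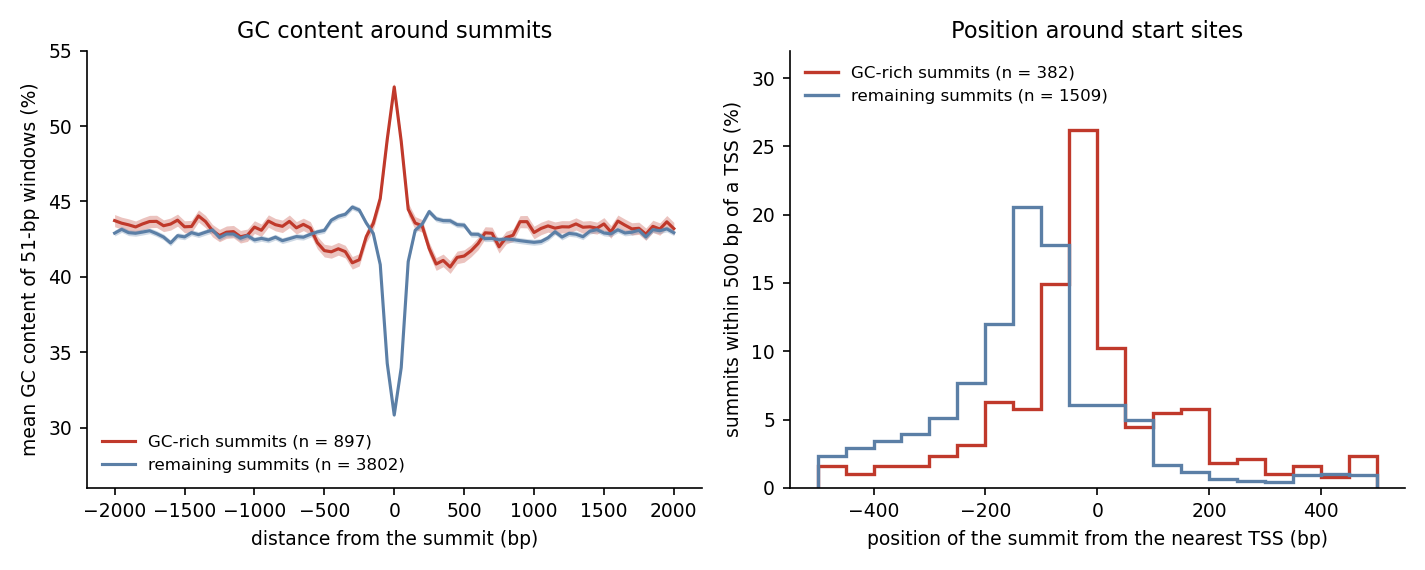
Left, mean GC content (%) of 51-bp windows by distance from the summit (bp), with the standard error as a band, for GC-rich summits (n = 897) and remaining summits (n = 3802). Right, position of summits within 500 bp of a protein-coding TSS (bp, negative is upstream) in bins of 50 bp, as a percentage of each group; the highest bin of the GC-rich summits reaches 26.2% just upstream of the TSS, and that of the remaining summits 20.5% between -150 and -100 bp.

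Of the 12 strongest GC-rich summits with support in both lists, those of CG13501, moody, Trmt6, mrt, RpS27 and Smg5 lay in promoters. The Trmt6 summit, 81 bp into the gene for a subunit of a tRNA methyltransferase (2L, peak 6562057 to 6562315), had a joint signal of 649.3, with 293.4 in replicate 1 and 376.6 in replicate 2. The RpS27 summit, 25 bp upstream of a gene for a protein of the small ribosomal subunit (3R, peak 25247399 to 25247639), had 515.3, with 218.7 and 281.9. The Smg5 summit lay inside this gene of nonsense-mediated mRNA decay, 71 bp upstream of a start site (2L, peak 13904440 to 13904666). It had 484.7, with 212.7 and 261.6. The mrt summit lay inside mrt, 195 bp upstream of a start site of this gene (3R, peak 27281103 to 27281349). It had 617, with 288 in replicate 1 and 319.9 in replicate 2. Of Trmt6, RpS27, Smg5 and mrt, none had a stronger summit within 1 kb.

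The others of these 12 not yet described lay on 2R and 2L. The CG13501 summit had a joint signal of 801.9 (367.8 in replicate 1 and 432.9 in replicate 2) and lay inside the gene Snp, 293 bp upstream of a CG13501 start site. The ITP summit (530.1) lay 569 bp upstream of a start site of the gene for ion transport peptide, a hormone, and had 55.4% GC. The wde summit (435.5), in an intron 543 bp into the gene, belongs to windei, which encodes a cofactor of a histone H3 lysine methyltransferase. The CG10651 summit (518.6) was intergenic, 13861 bp from the nearest start site. Further strong summits were that of aop (411.4), in an intron of this gene for an ETS repressor, that of Cpr76Ba (374.5), between genes, and that of soti (371.2), also between genes, with 195 in replicate 1 and 178.8 in replicate 2. In the 5' UTR class, the Fbl6 summit (368.3) was followed by that of Mef2 (294.2), which encodes a muscle transcription factor. In the 3' UTR class, the CG10357 summit (234.7) was the strongest.

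Most summits at genes for cytosolic ribosomal proteins were GC-rich. Of 34 symbols on a list that samples the cytosolic and mitochondrial genes, 14 were the nearest protein-coding gene of any summit and 10 of a GC-rich one. The 14 genes had 15 summits, of which 10 (66.7%) were GC-rich, beside 19.1% of all summits. The median signal of the 10 was 167.4, and 7 had a peak in both own lists. RpL23A (338, with 129.6 in replicate 1 and 216.8 in replicate 2) and RpS28b (327.5, with 166.8 and 157.6), genes for proteins of the large and small subunit, had summits 84 bp and 35 bp upstream of their start sites. Also on the list and with a GC-rich summit were RpL27A, RpL36A, RpL4, RpL8, RpS21, RpS4 and RpS6. Taking all 87 genes with the symbol of a cytosolic ribosomal protein, a count added after seeing the data, 26 of 41 summits were GC-rich (63.4%), at 26 genes, and 17 of the 26 had a peak in both own lists. The 73 mitochondrial ribosomal protein genes were nearest to 7 summits, of which 2 were GC-rich (28.6%). All gene list counts are descriptions with no test, from lists chosen with earlier results of these data known.

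Nuclear receptor and ecdysone response genes also had many GC-rich summits, but most of these were at Eip75B and Hr4. The share of the list therefore rests largely on that pair of genes. Of the 46 summits nearest to genes of this list, 17 (37.0%) were GC-rich, and 8 of the 17 had a peak in both own lists. Eip75B, a nuclear receptor gene induced by the steroid hormone ecdysone, was nearest to 7 GC-rich summits of 11 in all, the most for any gene. The strongest of them (297, with 131.1 in replicate 1 and 154.7 in replicate 2) was intergenic, 12519 bp from the nearest start site, and the only 1 of the 7 in both own lists. Hr4, a nuclear receptor gene of the same response, had 5 of 13, and 4 of these were in both lists, with joint signals up to 267.9. EcR, which encodes the ecdysone receptor, had an intronic GC-rich summit with a signal of 302.3 and 154 and 154.4 in the libraries. The other genes of the list with a GC-rich summit were Hr3, Hr51 and ftz-f1.

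Other developmental lists were closer to the share of all summits. Homeobox genes had 16 GC-rich summits of 69 (23.2%), among them hth (311.7), the anterior determinant bcd (215) and cad (210.2), and 3 of the 16 were in both lists. Gap, pair-rule and segment polarity genes had 5 of 29 (17.2%), with ftz-f1 (214.8) the strongest, then ptc (106.3), the Hedgehog receptor gene. Signalling genes had 14 of 75 (18.7%), among them spi (363.1), which encodes a ligand of the epidermal growth factor receptor, and Wnt4 (219.1). Proneural and neurogenic genes had 4 of 19 (21.1%), with neur (151.9), the gene for a ubiquitin ligase of the Notch pathway, the strongest. Polycomb, Trithorax and insulator genes had 7 of 37 (18.9%), with CTCF (138.8), esc (98.97) and ph-p (97.6), of which CTCF alone was in both lists.

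Among cell cycle genes, 3 of 15 summits were GC-rich (20%). They were the summits of Dp (400.7), which encodes the partner of E2F, of PCNA (220.9), the sliding clamp of replication, 3 bp from the start site, and of E2f1 (4.558), which lay 206 bp from a stronger summit. Neuronal function genes had 9 of 32 (28.1%), with elav the strongest, then Ten-a (139.6) and NetB (103.7), an axon guidance gene. Genes of the cytoskeleton, adhesion and polarity had the lowest share, 5 of 43 (11.6%), with sdt (105.2) the strongest and 0 in both lists. Over all genes, 767 were nearest to a GC-rich summit, of 2938 nearest to any summit, and 417 of the 767 had no other summit.

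Of these genes, 22 were nearest to 3 or more GC-rich summits. After Eip75B and Hr4 came RYBP, which encodes a partner of Polycomb group proteins, with 4 of 6 summits and signals of 299.8, 289.2, 76.44 and 51.89. CG6927 also had 4, of 5 summits, but none of the 4 was in both own lists, and their signals were 62.82 to 95.42. CG6927 neighbours the gene that was tagged. Within 20 kb of CG32772 (X, 4909102 to 4915161) lay 12 summits, of which 6 were GC-rich, 4 of these were nearest to CG6927, and 1 of the 6 was in both lists. None of the 6 lay within CG32772 itself. How much DNA around CG32772 the transgene carries is not given in the sources used here, so signal from the gene's own locus and from the transgene cannot be told apart at these summits. The CG6927 summits lay in CG42594, and the one with 74.3% GC was in a coding exon. Leaving out all 12 summits, an alternative added after seeing the data, left the share of GC-rich summits at 19.0% and the difference in support at -25.0 percentage points.

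The genes next in order were nearest to 3 GC-rich summits each. Cph had no other summit, and CG3556 had 1 other. A Cph summit with a signal of 7.171 lay 214 bp from a stronger summit, and a CG3556 summit with a signal of 2.203 lay 220 bp from a stronger summit. The summits of CG32639, all in introns of mew, an integrin gene, were 3 of 6, and those of Reg-2 (199.3) 3 of 6. tna, a gene for a Trithorax group protein, had 3 of 7, and apt, a gene for a transcription factor of trachea and other tissues, had 3 of 8. The highest GC contents after Ref1 were at CG6927 (74.3%), at a summit on the 7SK RNA gene nearest to CG1142 (73.3%), in rn, which encodes a zinc finger protein (72.3%), and in CG7465 (71.3%). Their signals were 61.07 to 96.09, and none had a peak in both own lists.

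Motif matches were counted in the same windows on both strands for 30 sequences and are a description, since the choice fixes base composition. Beside the remaining summits stand tiles of the arms at the same GC threshold. The DRE, TATCGATA, was present at 23 GC-rich summits (2.56%, interval 1.63 to 3.82%), at 0.894% of the remaining summits and in 0.118% of GC-rich tiles (0.277% of all tiles). Of the 23, 22 lay in promoters, where the shares were 5.40% of GC-rich summits and 0.372% of GC-rich tiles. The M1BP site, GGTCACAC, was present at 2.12% of GC-rich summits, 0.684% of remaining summits and 0.244% of GC-rich tiles (0.211% of all tiles). The CTCF core, AGGTGGCG, was present at 2.90%, 0.500% and 0.459% (0.235% of all tiles). These 3 sequences were thus more frequent at GC-rich summits than in either comparison set.

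Runs of 7 A, which the choice disfavours, were present at 14.4% of GC-rich summits, 22.8% of remaining summits and 2.13% of GC-rich tiles (8.65% of all tiles). CGATA, the core of the BEAF-32 site, lies within the DRE, so its count includes the DRE. It was present at 15.9%, 12.9% and 10.5% (11.4% of all tiles). In promoters CGATA was present at 23.3% of GC-rich summits, 16.8% of remaining summits and 11.9% of GC-rich tiles. In introns and intergenic DNA together the shares were 9.903%, 9.995% and 9.506%, so the sets were close there. CACGCG, a site of Hairy, was present at 5.80%, 0.842% and 3.04% (1.83% of all tiles), and runs of 6 G at 6.91%, 1.16% and 3.66% (1.97% of all tiles). CACGCG contains CGCG, counted by itself, which was present at 28.5%, 6.47% and 21.3% (13.2% of all tiles). GAGAG, the core of the GAGA factor site, was present at 17.9%, 8.92% and 14.8% (11.5% of all tiles). The Hairy site, runs of G, CGCG and the GAGA core were thus also more frequent in GC-rich tiles than at the remaining summits. In promoters the Hairy site was present at 8.35% of GC-rich summits and 4.14% of GC-rich tiles. In introns and intergenic DNA together its shares were 2.90% and 2.76%. Runs of G were present at 2.95% and 2.32% in promoters, and at 11.35% and 5.495% in introns and intergenic DNA.

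Some motifs stood at or below the level of GC-rich tiles. GCCAT, the core of the Pleiohomeotic site, was present at 25% of GC-rich summits, 12% of remaining summits and 25.3% of GC-rich tiles (19.6% of all tiles). TATAAA, the TATA box, was present at 2.34%, 23.8% and 2.67% (11.8% of all tiles). TAATTA, a homeodomain site, was present at 1.34%, 10.7% and 2.05% (6.47% of all tiles), and the GATA factor site AGATAA at 1.56%, 7.65% and 2.80% (5.61% of all tiles). No match says only that these letters are not in the window.

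**Figure D5:**
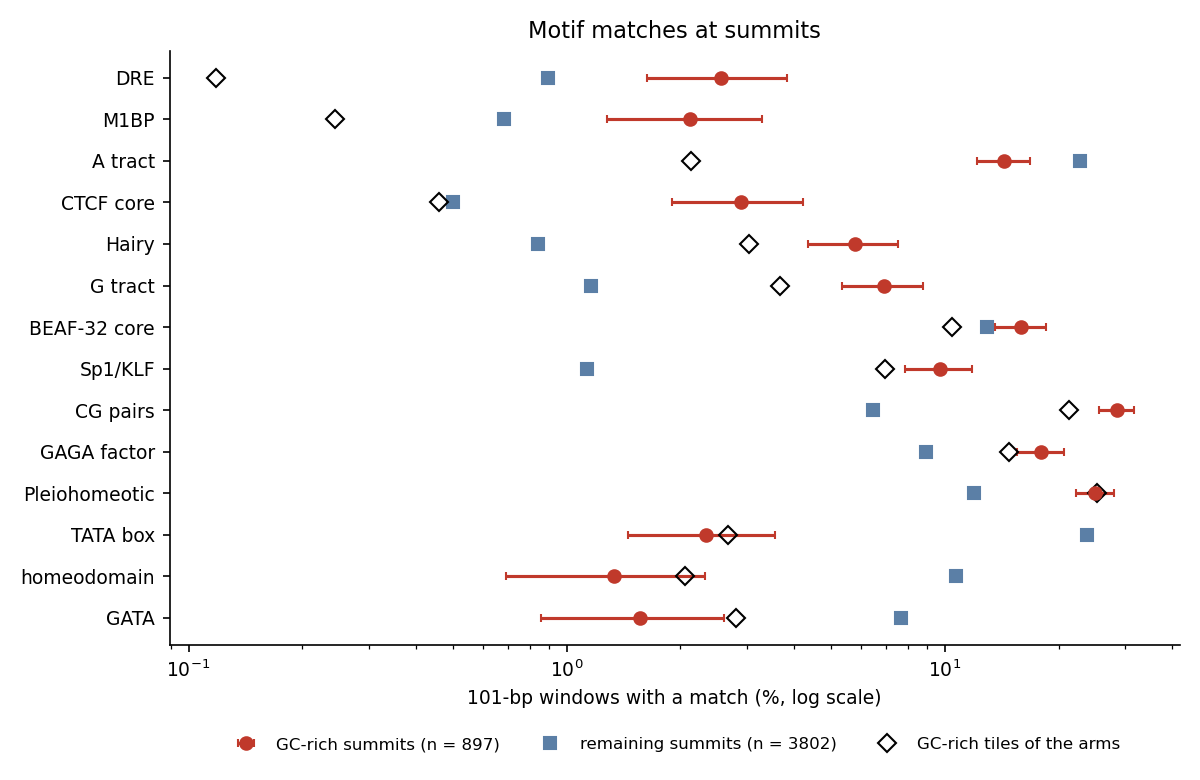
Share (%) of windows with a match on either strand, on a log axis, at GC-rich summits (circles, n = 897, with exact 95% intervals), at remaining summits (squares, n = 3802) and in GC-rich tiles of the arms (open diamonds). The DRE is at 2.56%, 0.894% and 0.118% in these sets, and the GAGA factor core at 17.9%, 8.92% and 14.8%.

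Several of these matches were more frequent at better supported GC-rich summits. The DRE was present at 4.38% of the 274 in both own lists (interval 2.28 to 7.53%) and 1.55% of the 386 in neither list (0.573 to 3.35%). CGATA was present at 23% and 10.6% (intervals 18.1 to 28.4% and 7.73 to 14.1%), and runs of A at 21.2% and 8.29% (16.5 to 26.5% and 5.74 to 11.5%). The CTCF core was at 4.38% and 1.81%, with intervals that overlap, and runs of G were at 4.74% and 8.29%. For CGATA and runs of A, the intervals of the groups did not overlap. Of the 274 in both lists, 157 lay in promoters, beside 407 of all 897 GC-rich summits. The DRE and CGATA were more frequent in promoters, and the groups were not matched for class.

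Sequences of 7 bases were ranked on arms 2L and 2R by their share at GC-rich summits over GC-rich tiles, and then counted on the other arms. Of the first 10, 4 were runs of A with at most 1 other base, and 4 shared at least CGATA or its other strand. On the other arms, CTATCGA was present at 4.12% of 582 GC-rich summits, a ratio of 6.09 to GC-rich tiles, and ACTATCG at 3.95%, a ratio of 7.42. GCGCCAC, which overlaps the CTCF core on its other strand, was present at 5.67% (ratio 3.08) and 0.999% of the remaining summits. ACTGCGC, in capitals in the mub window, was present at 2.41% (ratio 2.00) and 0.639% of the remaining summits. Among all GC-rich summits ranked to 2000, GCGCCAC was present at 11.6% of 189 (interval 7.44 to 17.1%), against 4.80% of the 708 ranked lower (3.35 to 6.65%). These counts include 2L and 2R, on which the sequence was chosen. Split by support, it was present at 8.39% of the 274 in both own lists (interval 5.40 to 12.3%). Of the 386 in neither list it was present at 4.66% (2.79 to 7.27%), and these intervals overlap.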

How the data were processed

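The deposited files are peak lists on dm6, per the labels: there are ranked lists and thresholded lists, by library and joint. The signal and the summit offset per peak are the authors' deposited values. Neither the aligner nor the caller is given in the sources used here. Ranked lists were put in order of signal, which is not their deposited order throughout. Joint ranked lists were not used, and 16 columns of values per library or pooled subset in them carry no name and were left out. The stricter joint thresholded list was the main list, with 4746 peaks, of which 47 off the chromosome arms were left out. Library depth is unknown, so intervals (exact Clopper-Pearson, 95%) cover counting error only.

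GC content was computed from the RefSeq copy of the dm6 sequence, and classes and start sites came from Ensembl release 115 without transposable elements. Overlap meant at least 1 shared base. Shares were compared by Fisher's exact test with Benjamini-Hochberg adjustment at 0.05, with scipy 1.17.1, pandas 2.3.3, numpy 2.4.6 and Python 3.11.15. Matplotlib 3.10.9 drew the figures. The functions were tested on simulated data. Named are the 12 strongest GC-rich summits in both own lists, the strongest per class (up to 4) and per gene list (up to 3), the 5 of highest GC, and up to 10 genes nearest to 3 or more. The other ribosomal protein and nuclear receptor genes named as members of their lists, and EloB, Gfat2, CG12684 and Top1, were named after their values were seen. Printed windows lie off 2R and share no base with an annotated UTR. The members, the 10 gene lists (361 of 370 symbols matched) and the 30 motifs were chosen with earlier results of these data known. Alternatives were each library's own list, the less strict joint list, other GC thresholds, windows, promoter widths and overlap rules, and subsets of the main list.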

Additional observations from a re-analysis of the deposited data

How the results depend on the processing

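The share of GC-rich summits was 30.6% at a threshold of 40% GC, 10.9% at 50%, 22.4% with a window of 51 bp, 10.1% in the upper 50% by signal, 17.5% with summits within 1 kb counted once and 17.9% without summits of signal under 20, and 14.1 to 14.8% in the libraries' own lists; it stayed below the tiles' 39.8% in each of these that kept the threshold and window. The differences in intron and coding exon share, in support by both lists and in the upper 25% by signal kept their sign and passed the test under every alternative run. They ranged from -11.5 to -7.08, from 1.72 to 7.97, from -27.4 to -6.42 and from -24.5 to -12.1 percentage points. The difference in summits within 1 kb of a stronger one missed the threshold in the upper 50% by signal (1.97). The promoter difference passed it in the upper 50% by signal (9.01) and with a promoter of 200 bp (6.25), changed sign with windows of 100 bp to each side (-0.44), and was 2.60 to 9.55 when a replicate was left out, which leaves the other library's own list. The intergenic difference changed sign with a window of 51 bp (0.173) or of 100 bp to each side (1.26), and was -3.96 to 0.627 when a replicate was left out, passing the test without replicate 1 (adjusted exact p = 0.0342). The causes were not tested. No paired analysis was possible because the replicates belong to 1 group.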
